A study of Mus musculus with 2 samples.

Results

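The genes described here are 10 members of the ATF4 amino acid response: *Atf4*, *Ddit3*, *Trib3*, *Chac1*, *Asns*, *Sesn2*, *Psat1*, *Phgdh*, *Shmt2* and *Mthfd2*. They were chosen by name, from their known place in the pathway, and with earlier results of these data known. All 10 were found among the 25810 rows that carried a gene symbol in the deposited files. Poly(A) RNA was sequenced from mammary epithelial cells (MECs) of inguinal glands on lactation day 3, in 1 library from wild type (WT) mice and 1 from *Igfbp7*-/- mice, in which the first coding exon of the gene is deleted. Cells carrying CD45, Ter119 or a further marker (CD31 in the study's methods, CD35 in the sample labels) had been depleted with magnetic beads. The labels give C57BL/6 as the background of both groups, whereas the methods state that the knockout was made on CD1. The age of the animals and the number pooled per library were not given in the sources used here. With 1 library per genotype the spread between animals was not measured, so every difference below is between these 2 libraries. The intervals are 95% counting intervals and cover counting error only.

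ATF4 is a transcription factor whose mRNA is translated more efficiently when the initiation factor eIF2 is phosphorylated, for example by the kinase GCN2 during amino acid shortage or by PERK during stress of the endoplasmic reticulum. It raises the transcription of genes for amino acid synthesis, uptake and tRNA charging, often through a composite site shared with C/EBP proteins, the C/EBP-ATF response element. In the lactating gland, secretory cells draw on a large supply of amino acids for milk protein. The level of *Atf4* mRNA does not itself report how much ATF4 protein is made.

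The promoters of the members were searched for the core of this element, TGATGNAA, on both strands, since the letters show which genes carry a near-perfect copy close to their start. RefSeq promoters running from 250 bases before to 50 bases after each start were found for all 10 members, with 2 for *Psat1*. A match was present for 3 of the 10 members, *Chac1*, *Trib3* and *Asns*, beside 4.51% of all 27025 genes with a promoter in the same set. A second pattern, TGNNGCAAT, was present for *Chac1*, *Trib3* and *Psat1*, beside 2.46% of all genes. For *Psat1* the match was in 1 of its 2 promoters. That match lies inside the gene span given below, away from the annotated 5′ end. The stretch TGATGCAAT would satisfy both patterns. The windows below hold 30 bases each, 5′ to 3′ on the strand that carries the match, and the capitals mark the match.
*Chac1*, TGATGNAA: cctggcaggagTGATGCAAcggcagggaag
*Chac1*, TGNNGCAAT: TGACGCAATctgactcgcccttgctgcatg
*Trib3*, TGATGNAA: ccccgcccggcTGATGTAAacctgagctaa
*Trib3*, TGNNGCAAT: gggtcacagaTGGTGCAATcccgggccgct
*Asns*, TGATGNAA: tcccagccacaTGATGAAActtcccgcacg
*Psat1*, TGNNGCAAT: cgcgggtggcTGGTGCAATcccctgctctc
By exact match to the NCBIM37 (mm9) genome, these windows lie in the same order at chr2:119176774-119176803 (minus strand), chr2:119176728-119176757 (plus), chr2:152169764-152169793 (plus), chr2:152169810-152169839 (minus), chr6:7643214-7643243 (minus) and chr19:15999666-15999695 (minus). *Trib3* and *Psat1* carry the same letters in the second pattern, and, as shown next, they were the members with the highest and the lowest ratio. A match of letters is a description and does not show that a factor was bound.

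Of the 10 members, 9 were higher in the *Igfbp7*-/- than in the WT library and 1, *Psat1*, was lower. At a ratio of at least 1.5, computed from RPM with 0.1 added to both values, 3 members were higher (*Trib3*, *Chac1* and *Phgdh*) and 0 were lower. RPM is the read count scaled to all mapped reads of a library. Of 14026 genes that reached 1 RPM in WT or *Igfbp7*-/-, 51.6% had a ratio above 1, 21.4% were higher by at least 1.5 times and 23% were lower by as much. The median log2 ratio was 0.46 for the members and 0.03 for all genes tested. The 3 members past 1.5 were thus 30% of the list beside 21.4% of all genes, and 2 members, *Trib3* and *Chac1*, passed a ratio of 2 beside 9.64% of all genes. The count depended on scaling: with RPM recomputed per read on the listed genes, 6 members passed 1.5 beside 30.3% of all genes, and all 10 had a ratio above 1. That scaling moved the median of all genes to 0.22, and the median of the members stayed 0.43 above it, as it did with the deposited RPM.

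**Figure D1:**
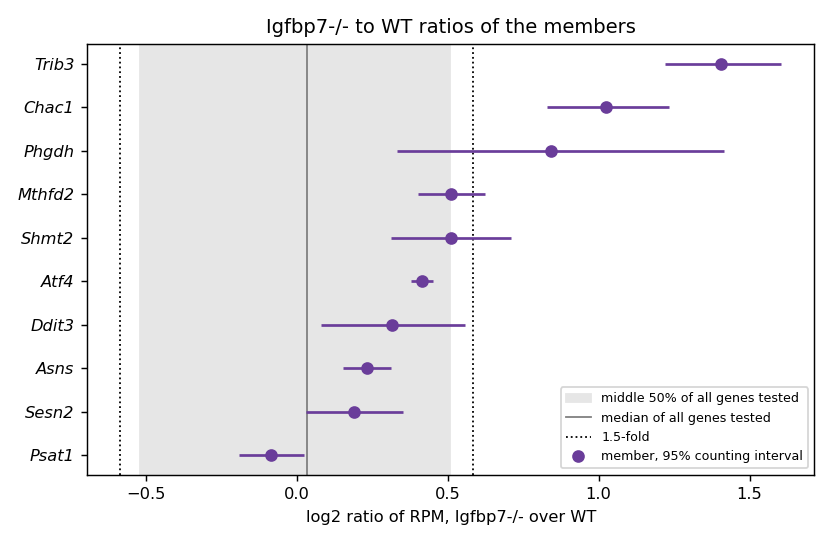
Log2 ratio of RPM in the *Igfbp7*-/- library over the WT library (horizontal axis) for each of the 10 members, with the 95% counting interval as a line. The grey band holds the middle 50% of all genes tested, from -0.52 to 0.51, and the dotted lines mark 1.5-fold in each direction: *Trib3*, *Chac1* and *Phgdh* lie beyond it, and only the intervals of *Trib3* and *Chac1* do so entirely.

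The other cell types did not stay level between the libraries. All 10 leukocyte markers, 6 of 7 endothelial markers and 6 of 7 myoepithelial markers were lower in *Igfbp7*-/- by at least 1.5 times. Of all genes tested, 23% were lower by as much. The summed levels of these lists, in the same order, were 343 and 81.4 RPM, 1213 and 388 RPM, and 3085 and 976 RPM in WT and *Igfbp7*-/-. Fibroblast markers (4 of 6 lower, 9060 and 4582 RPM summed) and adipocyte markers (3 of 4 tested lower and 1 higher, 563 and 192 RPM) had lower sums as well, and none of the 3 erythroid markers tested passed 1.5. Within the secretory luminal list of 10, *Csn2*, *Csn1s1*, *Csn3*, *Wap* and *Lalba* were lower (50%, beside 23% of all genes). *Krt8*, *Krt18* and *Krt19* were higher (30%, beside 21.4%), and *Elf5* (log2 ratio -0.52) and *Epcam* (0.51) stayed within 1.5 times. Caseins and *Wap* together accounted for 12.3% (WT) and 4.70% (*Igfbp7*-/-) of mapped reads, and the listed genes as a whole for 82.3% and 72.3%. In bulk RNA, fewer cells of a type and less RNA per cell cannot be told apart, and the part of these shifts in the values of the members was not tested. *Igfbp7* itself had 5224 reads in WT and 37 in *Igfbp7*-/-.

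*Atf4*, which encodes the activator at the head of the group (chr15:80085614-80087970, plus strand, mm9), was by far the most abundant member. It was counted with 20545 reads in WT (598 RPM) and 27936 in *Igfbp7*-/- (798 RPM), a ratio of 1.33 (1.30 to 1.37). Its mRNA was therefore higher by more than counting error and by less than 1.5 times. *Ddit3* (chr10:126727830-126733344, plus strand) encodes CHOP, a C/EBP family factor induced downstream of ATF4 and linked to cell death in prolonged stress. It was counted with 525 reads in WT (15.3 RPM) and 668 in *Igfbp7*-/- (19.1 RPM), a ratio of 1.25 (1.06 to 1.47). The end of *Ddit3* overlaps *Mars* on the opposite strand in the annotation, and whether strand entered the counting was not given in the sources used here, so reads of the pair may be mixed.

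The largest differences were those of *Trib3* and *Chac1*, both on chromosome 2. *Trib3* (chr2:152163158-152169768, minus strand) encodes a pseudokinase that binds ATF4 and AKT and limits ATF4 activity. It was counted with 607 reads in WT (17.7 RPM) and 1646 in *Igfbp7*-/- (47.0 RPM), a ratio of 2.65 (2.33 to 3.04). Of all genes tested, 95.6% had a lower ratio than *Trib3*. *Chac1* (chr2:119176965-119180117, plus strand) encodes an enzyme that breaks down glutathione. It was counted with 603 reads in WT (17.6 RPM) and 1255 in *Igfbp7*-/- (35.8 RPM), a ratio of 2.03 (1.78 to 2.35). These were the only members whose whole interval lay above 1.5, as it did for 11.2% of all genes tested. They were also the members whose promoters matched both patterns, the second of which was chosen after the promoters were seen. Among the other pathway genes described below, both were present for *Nupr1* (log2 ratio -0.16), *Fgf21* (1.60), *Aars* (0.44), *Iars* (0.65) and *Pycr1* (-0.91). The relation of the patterns to the ratios was not tested. *Sesn2* (chr4:132047947-132066416, minus strand), which encodes a leucine-binding inhibitor of mTORC1 signaling, stayed close to its WT level, with 1203 reads (35.04 RPM) in WT and 1401 (40.01 RPM) in *Igfbp7*-/-, a ratio of 1.14 (1.02 to 1.28).

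The biosynthetic members differed less and not all in the same direction. *Asns* (chr6:7625169-7643254, minus strand), asparagine synthetase, was counted with 4783 reads in WT (139 RPM) and 5732 in *Igfbp7*-/- (164 RPM), a ratio of 1.17 (1.11 to 1.24). Its promoter matched TGATGNAA as those of *Trib3* and *Chac1* did, at a ratio close to 1. *Phgdh* (chr3:98117093-98143913, minus strand) encodes the enzyme that commits a glycolytic intermediate to serine synthesis. It rested on few reads, 92 in the WT library (2.68 RPM) against 171 (4.88 RPM), and its ratio of 1.79 had a wide interval (1.26 to 2.67). *Psat1* (chr19:15979168-16021827, minus strand), which catalyses the next step, had 2905 (84.6 RPM) and 2795 reads (79.8 RPM), and its ratio of 0.943 (0.876 to 1.02) was the only one whose interval included 1.

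The mitochondrial folate members were close to each other. *Shmt2* (chr10:126954195-126959491, minus strand, its end overlapping *Ndufa4l2* on the opposite strand), which splits serine into glycine and a one-carbon unit, was counted with 707 reads in WT (20.6 RPM) and 1028 in *Igfbp7*-/- (29.4 RPM), a ratio of 1.42 (1.24 to 1.64). *Mthfd2* (chr6:83255685-83267600, minus strand), which oxidises that unit while it is bound to folate, had 2301 (67.0 RPM) and 3348 reads (95.6 RPM), a ratio of 1.43 (1.32 to 1.54). Both stayed under 1.5 with the deposited RPM and passed it when RPM was computed per read on the listed genes, as did *Atf4*. The interval lay above 1 for 9 of the 10 members and for 34.8% of all genes tested. With each count divided by 2 for read pairs, this is a statement on sampling of reads only.

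Levels of different genes were compared per length, as RPKM (RPM per kilobase of gene). In WT the order ran from *Atf4* (342 RPKM) through *Asns* (72.3), *Psat1* (39.7), *Mthfd2* (32.4), *Ddit3* (17.4), *Sesn2* (13.1), *Chac1* (11.1), *Shmt2* (9.03) and *Trib3* (8.62) to *Phgdh* (1.43 RPKM). The counting intervals of *Sesn2* and *Chac1*, of *Chac1* and *Shmt2*, and of *Shmt2* and *Trib3* overlapped, so those neighbours were not separated. In *Igfbp7*-/- the order was *Atf4* (456 RPKM), *Asns* (84.9), *Mthfd2* (46.2), *Psat1* (37.5), *Trib3* (22.9), *Chac1* (22.6), *Ddit3* (21.7), *Sesn2* (14.9), *Shmt2* (12.9) and *Phgdh* (2.61 RPKM). Here the intervals of *Trib3* and *Chac1*, of *Chac1* and *Ddit3*, and of *Sesn2* and *Shmt2* overlapped. *Trib3* thus moved from rank 9 to rank 5, and *Mthfd2* and *Psat1* changed places. *Atf4* made up 62.5% of the summed RPKM of the members in WT and 63.1% in *Igfbp7*-/-.

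**Figure D2:**
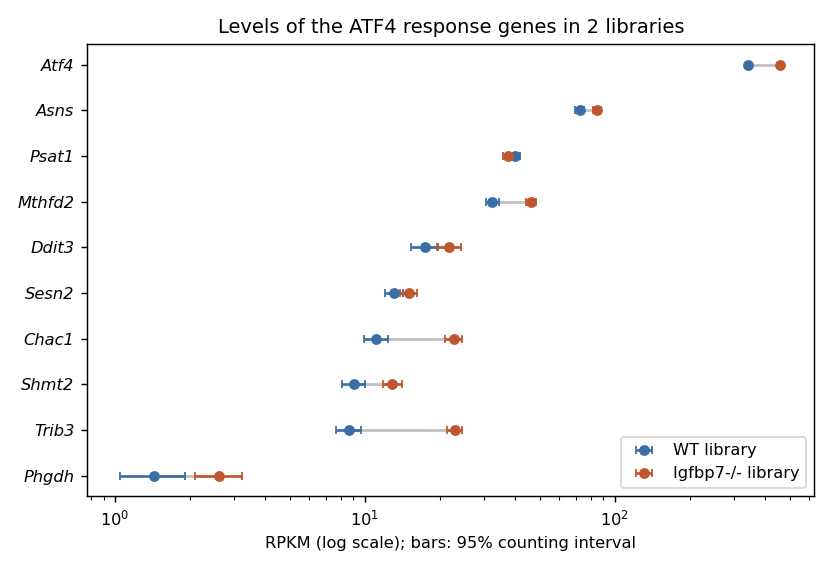
RPKM of each member (horizontal log axis) in the WT library (blue) and the *Igfbp7*-/- library (orange), with 95% counting intervals. *Atf4* stands apart at 342 and 456 RPKM, *Phgdh* is lowest at 1.43 and 2.61 RPKM, and the longest grey connecting lines belong to *Trib3* and *Chac1*.

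Ratios between genes of 1 library do not depend on the scaling between libraries. The RPKM of *Trib3* was 0.0252 times that of *Atf4* in WT and 0.0502 times in *Igfbp7*-/-, a log2 difference of 0.996 (0.80 to 1.19), and *Chac1* was 0.0324 and 0.0496 times *Atf4* (0.61, 0.41 to 0.82). *Asns* was 0.211 and 0.186 times *Atf4* (-0.18, -0.27 to -0.10). For *Ddit3*, the log2 difference of -0.10 had an interval from -0.33 to 0.14. *Trib3* and *Chac1* were therefore higher relative to *Atf4*, *Asns* was slightly lower, and no difference was detectable for *Ddit3* at this depth. *Psat1* exceeded *Phgdh* 27.7 times in WT and 14.4 times in *Igfbp7*-/- (log2 difference -0.95, -1.48 to -0.42).

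Of the members, 5 have close relatives in the genome that are not classed as ATF4 response genes. Of the 8 relatives, 0 were higher by 1.5 times, beside 21.4% of all genes. *Chac2* and *Mthfd2l* (25%, beside 23% of all genes) were lower. *Chac2*, which encodes the related glutathione-degrading enzyme, had 2.80 (WT) and 1.09 RPM (*Igfbp7*-/-), a log2 ratio of -1.29 on 96 and 38 reads. The RPKM of *Chac1* was 5.27 times that of *Chac2* in WT and 27.7 times in *Igfbp7*-/-, a log2 difference of 2.39 (1.60 to 3.19). *Trib1* had 323 and 316 RPM and *Trib2* had 18.5 and 15.05 RPM, so that *Trib3* gained on both, by 1.44 (1.24 to 1.64) and 1.71 (1.41 to 2.01) on the log2 scale. The cytosolic counterpart *Mthfd1* (12.8 and 8.54 RPM) and the mitochondrial *Mthfd2l* (5.94 and 3.91 RPM) had lower values in *Igfbp7*-/-, with log2 ratios of -0.58 and -0.59 on either side of the 1.5-fold limit. That of *Mthfd2l* was within the limit with 1 RPM added (-0.50), from RPKM (-0.58) and per read on the listed genes (-0.41). *Mthfd2* exceeded *Mthfd1* 8.42 times in WT and 18.0 times in *Igfbp7*-/- (log2 difference 1.10, 0.78 to 1.41). For *Shmt2* against the cytosolic *Shmt1* (11.9 and 14.2 RPM) the log2 difference of 0.26 had an interval from -0.07 to 0.59. *Sesn2* gained on *Sesn1* (50.8 and 44.5 RPM) by 0.38 (0.17 to 0.59), and against *Sesn3* (10.8 and 12.2 RPM) the difference was 0.02 (-0.31 to 0.34).

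**Figure D3:**
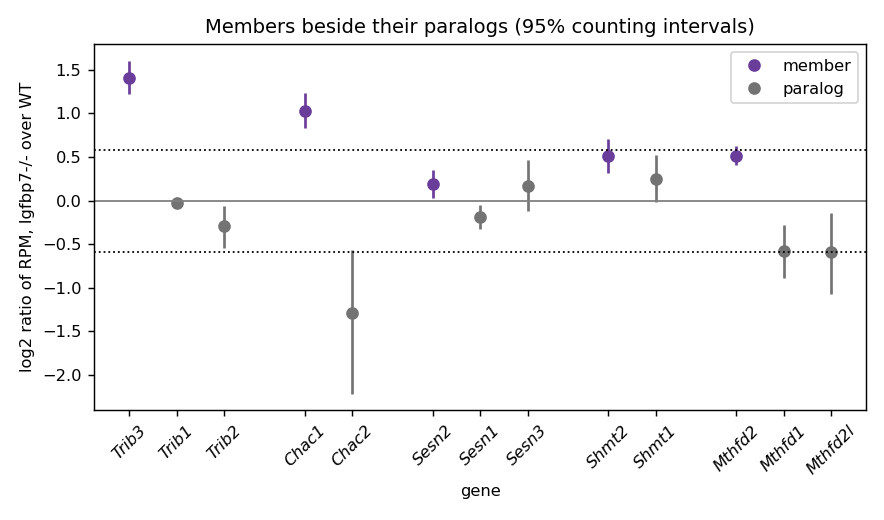
Log2 ratio of RPM in *Igfbp7*-/- over WT (vertical axis) for 5 members (purple) and their relatives (grey), with 95% counting intervals, and dotted lines at 1.5-fold. *Trib3* and *Chac1* lie above the upper line, and *Chac2* at -1.29 is the lowest point.

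The rest of the pathway was described from lists that hold 80 genes, the 8 relatives included, all of which passed 1 RPM in either library. Of these, 12 were higher by at least 1.5 times and 14 were lower, 15% and 17.5% beside 21.4% and 23% of all genes tested, and their median log2 ratio was 0.09. Per read on the listed genes, 22 of the 80 were higher, beside 30.3% of all genes. The median of the 80 was then 0.28, beside 0.22 for all genes. Under both scalings the median of these genes was thus within 0.1 of that of all genes.

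Cytosolic aminoacyl-tRNA synthetases, which charge tRNAs with amino acids, were divided into 12 known to respond to ATF4 and 8 others. All 12 of the responsive group had a ratio above 1, beside 51.6% of all genes. Their median log2 ratio was 0.44, with a range from 0.09 (*Wars*) to 0.68 (*Cars*). That of *Wars* was -0.04 when the 20 genes with the highest RPM were left out of the scaling. With the deposited RPM, only *Cars* (41.8 RPM in WT, 67.2 RPM in *Igfbp7*-/-) and *Iars* (71.5 and 112 RPM, log2 ratio 0.65) passed 1.5 times. These were 16.7% of the group, beside 21.4% of all genes, and *Eprs* (123 and 183 RPM, 0.58) came just short. Per read on the listed genes 8 of the 12 passed 1.5 times, beside 30.3% of all genes, and without the 20 genes with the highest RPM 0 did, beside 16.7%. Of the 8 others, 3 had a ratio above 1, beside 51.6% of all genes, and the median was -0.13, or 0.06 per read on the listed genes. With the deposited RPM, *Rars* was higher (44.8 and 75.7 RPM, 0.76), 12.5% of the 8 beside 21.4% of all genes. *Kars* was lower (68.3 and 42.6 RPM, -0.68), 12.5% beside 23%, and *Qars* stayed within 1.5 times (36.8 and 52.4 RPM, 0.51). The difference between the groups was not tested. A promoter was found under the same symbol for 8 of the 12 and for 5 of the 8. TGATGNAA was present in 5 and in 0 of these, beside 4.51% of all genes with a promoter. Of 11 partners and further targets with a promoter, described below, 5 had it: *Atf3* (log2 ratio 0.39), *Nupr1* (-0.16), *Vldlr* (-0.20), *Fgf21* (1.60) and *Jdp2* (-0.74). So did 2 of 7 transporters, *Slc7a11* (-0.42) and *Slc1a4* (0.79). It was also in 2 of 8 enzymes for non-essential amino acids, *Pycr1* (-0.91) and *Got1* (0.17). A window from each of the 5 synthetase genes is printed for comparison with those of *Chac1*, *Trib3* and *Asns*, in the same format.
*Aars*: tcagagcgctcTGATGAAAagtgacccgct
*Gars*: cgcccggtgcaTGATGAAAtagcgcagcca
*Iars*: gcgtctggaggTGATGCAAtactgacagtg
*Tars*: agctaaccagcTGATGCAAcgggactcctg
*Yars*: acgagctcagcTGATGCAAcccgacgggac
In mm9 these lie at chr8:113557740-113557769, chr6:54987954-54987983 and chr13:49777495-49777524 on the minus strand, and at chr15:11329410-11329439 and chr4:128867139-128867168 on the plus strand. The log2 ratios of these genes were 0.44 for *Aars*, 0.23 for *Gars*, 0.65 for *Iars*, 0.55 for *Tars* and 0.34 for *Yars*. They covered most of the range of the whole responsive group.

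Amino acid transporters known as ATF4 targets were mixed. Of 10, 4 (40%) were higher by at least 1.5 times, beside 21.4% of all genes, 1 was lower, and the median log2 ratio was 0.17. *Slc6a9*, a glycine transporter, had 7.25 (WT) and 16.3 RPM (*Igfbp7*-/-), a log2 ratio of 1.16, and *Slc1a4*, a transporter of alanine, serine and cysteine, had 27.6 and 47.8 RPM (0.79). The other 2, named after their values were seen, were *Slc7a5* (112 and 190 RPM, 0.76), the light chain of the main leucine exchanger, and *Slc7a3* (1.25 and 2.68 RPM). *Slc1a5*, a glutamine transporter, was the lower one, at 68.8 and 33.7 RPM (-1.03).

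Upstream of ATF4, 2 of 9 genes for eIF2 kinases, phosphatase subunits and their regulators were higher (22.2%, beside 21.4% of all genes) and 1 was lower (11.1%, beside 23%). *Eif2ak3*, which encodes PERK, had 56.9 (WT) and 127 RPM (*Igfbp7*-/-), a log2 ratio of 1.16, and *Gcn1l1*, which encodes the ribosome-bound activator of GCN2, had 38.1 and 97.3 RPM (1.35). *Eif2ak2*, which encodes the double-stranded RNA sensor PKR, had 75.6 and 17.4 RPM (-2.11). *Eif2ak4*, which encodes GCN2, stayed within 1.5 times at 40.6 and 34.7 RPM. Transcript levels of these kinases do not measure their activity.

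Among 12 partners and further targets of ATF4, 3 (25%) were higher and 2 (16.7%) were lower, beside 21.4% and 23% of all genes, with a median of -0.05, or 0.14 per read on the listed genes. *Atf5*, a related factor translated under the same control, had 19.8 (WT) and 63.2 RPM (*Igfbp7*-/-), a log2 ratio of 1.67, larger than that of any member. *Cebpb*, which encodes a C/EBP partner of ATF4, had 58.0 and 113 RPM (0.97). The third was *Fgf21* (0.29 and 1.09 RPM, on 10 and 38 reads). *Gdf15*, a secreted stress factor, was lower at 25.7 and 12.8 RPM (-1.002), and so was *Jdp2* (135 and 80.7 RPM, -0.74). *Fgf21* and *Jdp2* were named after their values were seen.

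Of 10 enzymes for non-essential amino acids, 5 (50%) were lower by at least 1.5 times, beside 23% of all genes. Of the 10, 0 were higher by as much, beside 21.4% of all genes, and the median log2 ratio was -0.57. *Cth*, which makes cysteine from cystathionine, had 16.1 RPM in WT against 5.77 (log2 ratio -1.46), *Gpt2*, a mitochondrial alanine aminotransferase, had 63.4 and 28.1 RPM (-1.17), and *Bcat1*, which transaminates branched-chain amino acids, had 13.5 and 7.05 RPM (-0.93). The remaining 2, *Pycr1* and *Cbs*, were under 3 RPM in both libraries. With a minimum of 10 RPM, 3 of the 8 enzymes left were lower, beside 20.4% of all genes, and the median was -0.29. Of 11 further serine, glycine and folate enzymes, 0 were higher and 2 (18.2%) were lower, beside 21.4% and 23% of all genes. A ratio above 1 was found for 6 of the 11, beside 51.6% of all genes. The median was 0.00, which was 0.19 per read on the listed genes. The lower ones were *Aldh1l1*, a cytosolic folate enzyme, counted at 375 reads in WT (10.9 RPM) and at 20 in *Igfbp7*-/- (0.57 RPM, -4.04), and *Gldc*, of the glycine cleavage system (31.0 and 13.2 RPM, -1.23). *Mat2a*, which makes the methyl donor S-adenosylmethionine, stayed within 1.5 times (96.1 and 127 RPM, 0.40).

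**Figure D4:**
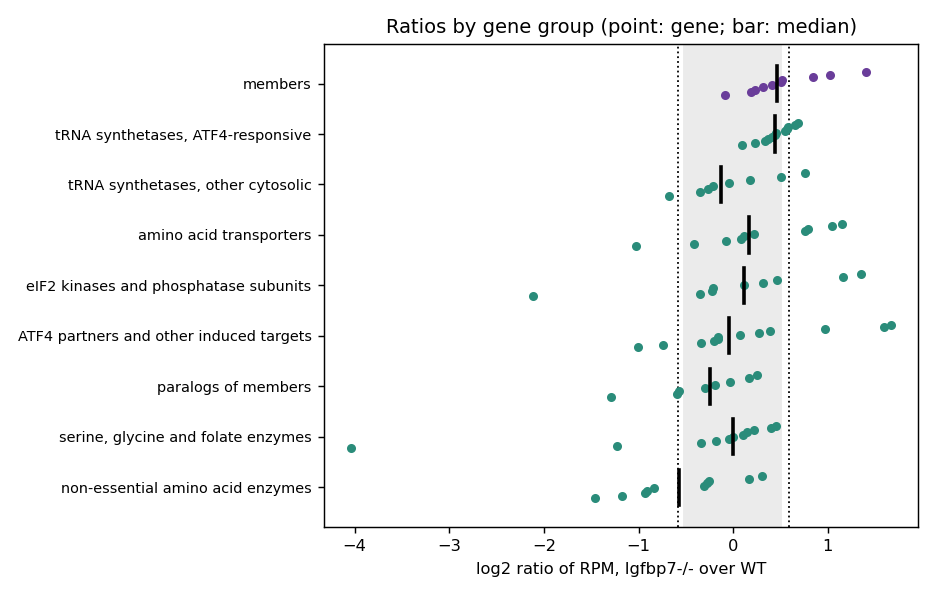
Log2 ratio of RPM in *Igfbp7*-/- over WT (horizontal axis) for the genes of each group, 1 point per gene, with the group median as a black bar, the middle 50% of all genes tested in grey and dotted lines at 1.5-fold. The medians run from 0.46 for the members and 0.44 for the ATF4-responsive synthetases to -0.57 for the enzymes of non-essential amino acids.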

How the data were processed

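The authors made 1 poly(A) SOLiD library per genotype and mapped paired-end reads of 35 and 75 bases with a Bowtie-based pipeline, allowing at most 3 mismatches. The submitters' processing notes list mm9, Bowtie 0.12.3 and SAMtools 0.1.15, while the methods name a human build. The gene annotation and the treatment of reads with several matches were not given in the sources used here. The authors deposited an unnormalized read count per gene. The deposited RPM is that count scaled to all mapped reads (34327854 in WT, 35016847 in *Igfbp7*-/-), reads outside the listed genes included. The deposited RPKM is the RPM per kilobase of the authors' gene length, which was the same in both libraries. At this depth 3 reads were worth 0.0874 and 0.0857 RPM.

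Ratios were computed from RPM plus 0.1, for genes that reached 1 RPM in WT or *Igfbp7*-/-, and called at 1.5 times, the fold the study used. Among genes with 1 to 20 reads, 75.8% and 74.1% of counts were even, so exact conditional binomial (Clopper-Pearson) intervals of ratios and exact Poisson intervals of levels were computed on counts divided by 2 and left out the added 0.1. Intervals of differences between 2 log2 ratios were normal approximations from the same counts. The 50 rows without a symbol (0.0408% and 0.0484% of mapped reads) were left out. With 1 library per genotype no test was made. The members and lists were chosen with earlier results of these data known. Named genes were all members, their relatives, and in each pathway list the 3 with the largest absolute log2 ratio among genes reaching 10 RPM. Further named after their values were seen were *Eif2ak4*, *Wars*, *Slc7a3*, *Slc7a5*, *Fgf21*, *Jdp2*, *Pycr1*, *Cbs*, the luminal markers and the synthetases of mitochondria. *Aars*, *Gars*, *Tars* and *Yars* were named for their promoters, and so, with their values seen, were *Atf3*, *Nupr1*, *Vldlr*, *Slc7a11* and *Got1*. The second promoter pattern was chosen after the promoters were seen. Promoters were those of RefSeq (GRCm38.p6), and gene positions came from GENCODE on NCBIM37. Some items are not reported here. The scripts were tested on simulated counts with 200 changed genes. Python 3.11.15, numpy 2.4.6, scipy 1.17.1, pandas 2.3.3, matplotlib 3.10.9 and, for TMM scaling alone, edgeR 4.0.16 were used.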

Additional observations from a re-analysis of the deposited data

How the results depend on the processing

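No result could be checked by leaving out a library, since each genotype had 1, and no paired analysis was possible because there was 1 library per group. Of 109 member ratios recomputed under 11 alternatives, 0 that had passed 1.5 times changed sign. On the log2 scale, 16 moved by at least the distance from the centre of their counting interval to its ends. *Psat1*, within 1.5 times, ranged from -0.22 to 0.12 on the log2 scale. The members' median log2 ratio lay between 0.32 (without the 20 genes with the highest RPM) and 0.66. Scaling mattered most. Per read on the listed genes, 6 members and 22 other pathway genes were higher, with medians of 0.65 and 0.28. When ribosomal and small nuclear RNA were also left out, an alternative chosen after the data were seen, 6 and 23 were higher, with medians of 0.66 and 0.29. These scalings moved the median of all genes from 0.03 to 0.22 and 0.23, and the shares of all genes higher and lower from 21.4% and 23.0% to 30.3% and 18.4% and to 31.0% and 18.2%. Without the 20 genes with the highest RPM the median of all genes was -0.10. At a threshold of 2, 6 of the 80 other pathway genes were higher and 8 were lower, beside 9.64% and 13.8% of all genes tested. At that threshold 1 member, *Trib3*, had its whole interval past it. *Phgdh* dropped out at a minimum of 10 RPM.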

Other observations

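A group described after the ratios were seen was that of the 17 tRNA synthetases of mitochondria, of which 16 passed 1 RPM. Of these, 15 had a ratio above 1 and 4 (25%) were higher in *Igfbp7*-/- by at least 1.5 times, beside 51.6% and 21.4% of all genes, with a median log2 ratio of 0.30. The higher ones were *Ears2* (3.23 RPM in WT, 7.05 RPM in *Igfbp7*-/-), *Wars2* (9.35 and 18.8 RPM), *Mars2* (4.399 and 7.51 RPM) and *Tars2* (8.30 and 13.1 RPM). *Lars2* was listed at 5849.6 and 6779.9 RPM, while the next highest, *Iars2*, had 16.2 and 21.4 RPM. The cause of the high *Lars2* count was not tested.

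Of 15 proliferation genes tested, 13 were lower in *Igfbp7*-/- by at least 1.5 times, beside 23% of all genes, and the median log2 ratio was -1.71. The range went from -3.51 for *Cdk1*, with 147 reads in WT and 10 in *Igfbp7*-/-, to 0.34 for *Mcm7*, with 266 and 345 reads, and *Mki67* had 3092 and 371 reads. *Ccnb1* had 33 reads in WT and 0 in *Igfbp7*-/-, where the exact 95% interval on read pairs reached 0.211 RPM.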
